A study of Mus musculus with 11 samples.

Results

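The positions described here are sites in the mouse genome where both Elf1 and Ets1 were mapped in both kinds of CD4 T cell, with no Foxp3 peak nearby. They were chosen by the deposited scores and by distance. A member is 1 of the 10000 Ets1 positions with the highest score in Foxp3-negative CD4 cells that has a position among the 10000 highest, within 200 bp, in each of the other 3 Elf1 and Ets1 libraries, and no Foxp3 peak midpoint within 1 kb. Of the 10000 Ets1 positions, 1918 met the rule of 4 libraries at any distance from Foxp3 and are called joint below. Members made up 1148 of these joint positions, or 59.9% (exact 95% interval 57.6 to 62.1). Another 740 joint positions (38.6%, 36.4 to 40.8) lay within 300 bp of a Foxp3 midpoint and serve as the comparison, called joint positions near Foxp3. The remaining 30 lay between those distances and enter neither set. Of all 10000 Ets1 positions, 7641 lay over 1 kb from a Foxp3 midpoint on the same chromosome. Of the 8082 that were not joint, 6496 did, so joint positions lacked Foxp3 less often than the rest. Seen from Foxp3, 778 of the 2886 peaks (27.0%) had a joint position within 300 bp.

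Elf1 and Ets1 belong to the ETS family of transcription factors, which bind DNA at short sites built around a shared core, so several members of the family can occupy the same element. In T cells, Ets1 is known for its part in thymic development and in the expression of T cell genes, and Elf1 is another ETS protein present in resting T cells. Foxp3 is the forkhead factor that defines regulatory T cells. Cbfb does not bind DNA itself: it is the partner that stabilises Runx proteins on DNA, and Runx sites often lie beside ETS sites in T cell enhancers.

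The libraries came from chromatin immunoprecipitation followed by sequencing (ChIP-seq) of CD4 T cells from lymph nodes and spleen of mice about 8 weeks old. A green fluorescent protein (GFP) reporter of Foxp3 was used to sort Foxp3-positive regulatory T cells, called Treg below, from Foxp3-negative CD4 cells, called CD4 below. No strain, sex or number of pooled animals is stated, and Foxp3-negative CD4 cells are a mixed population of which the labels say no more. Treg cells gave 1 library each for Ets1, Elf1 and Cbfb, and CD4 cells gave 1 library each for Ets1 and Elf1. The Foxp3 list of 2886 peaks combined the replicates of the Treg Foxp3 library. With 1 library per group there was no replicate check, so no p-values are given, and the intervals below cover counting error over positions only. Sorting purity cannot be checked against marker genes here, because the lists hold no expression values. Coordinates are in build mm9. The positions carry no gene names or sequences because no mm9 genome or annotation was used.

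Each step of the rule removed a large share of the Ets1 positions. Of the 10000 CD4 Ets1 positions, 5051 (50.5%) had a CD4 Elf1 position within 200 bp, and 2541 of these also had Treg Ets1 nearby. The Treg Elf1 list then left 1918. Taken singly, the Treg lists held a position within 200 bp of 4624 (46.2%, Ets1) and 4120 (41.2%, Elf1) of the CD4 Ets1 positions. The ends of the lists fell on flat parts of the score. The CD4 Ets1 score was 11.4510 at rank 10000 and 11.4509 at rank 10001, and the CD4 Elf1 score was 15.1181 and 15.1157. In Treg cells 186 Elf1 positions tied at the last score of 6.78 and 3 Ets1 positions at 6.14. At the Foxp3 limit, the members nearest to a midpoint lay 1007 bp (chromosome 19, 53269895), 1023 bp (chromosome 1, 127331317) and 1084 bp (chromosome 12, 21293266) away. The joint positions just inside lay at 974 bp (chromosome 8, 86721391), 889 bp (chromosome 3, 87651811) and 859 bp (chromosome 19, 5490543).

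The fold enrichment at members varied widely within each library, while high scores in all 4 libraries were required by the rule. The deposited fold enrichment, an estimate of signal over control per position, had a median of 6.74 for Treg Ets1 (lowest 0.399, highest 210) and 9.95 for CD4 Ets1 (1.61 to 273). For Elf1 the median was 18.1 in Treg (2.01 to 360) and 24.3 in CD4 (1.26 to 416). The members were chosen by the score, not by the fold, and some had a high score with a low fold. The fold was under 4 at 280 members (24.4%) in Treg Ets1, 78 (6.79%) in CD4 Ets1, 20 (1.74%) in Treg Elf1 and 15 (1.31%) in CD4 Elf1. Over each whole list of 10000 the counts were 2888, 1375, 308 and 218, in the same order. At joint positions near Foxp3 the shares were 17.4%, 3.65%, 1.49% and 0.81%. In all, 310 of the 1148 members were under 4-fold in at least 1 library, and 6 in all 4. At the 740 joint positions near Foxp3 the counts were 151 and 0. Since the 4 libraries differ in antibody and in a depth that is unknown, the medians of different factors are not compared.

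A small group of members, several with very high scores, was set apart after seeing the data and touches the Cbfb results below. At 8 members the 4 Elf1 and Ets1 positions spanned at most 20 bp and Treg Cbfb lay within 20 bp of the CD4 Ets1 base. Their median CD4 Ets1 score was 124. Their median fold over the 4 libraries ran from 1.84 to 7.10, with a median of 3.34, and was under 5 at 5 of them. Near Foxp3, 1 joint position of 740 was of this kind. The share over all CD4 Ets1 positions was not computed. At chromosome 4, 70039223, the CD4 Ets1 score of 232 ranked 3 in its list and the Treg Elf1 score of 145 ranked 1. The fold there was 2.25 and 2.72 in Treg and 2.42 and 1.90 in CD4 for Ets1 and Elf1, and Cbfb lay at the same base with 2.39-fold enrichment. At chromosome 13, 77578252, all 5 libraries gave the identical base with between 2.78- and 3.59-fold enrichment. What these positions share with one another was not tested. Cbfb shares below are also given without them where the value changes.

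The 10 members ranked highest in all 4 libraries, by their worst rank, had worst ranks from 182 to 616 and are a description of chosen positions. Elf1 was over 10-fold in both cell types at 9 of them. The exception was the position on chromosome 4 at 70039223 just described, with folds between 1.90 and 2.72. It was also 1 of the 2 among the 10 with Cbfb within 200 bp, against a background of 4.83% over all CD4 Ets1 positions. At chromosome 17, 57150796, Ets1 was enriched 5.38-fold in Treg and 18.4-fold in CD4, and Elf1 39.4-fold in Treg and 55.9-fold in CD4. The 4 positions there spanned 55 bp and the nearest Foxp3 midpoint lay 4848 kb away. At chromosome 7, 129276505, Ets1 reached 122-fold in Treg and 166-fold in CD4, and Elf1 330-fold in Treg and 416-fold in CD4. Cbfb lay 22 bp from that Ets1 base with 54.9-fold enrichment. At chromosome 2, 22923572, the Elf1 positions of both cell types fell on the same base, with 79.3-fold enrichment in Treg and 125-fold in CD4, and Ets1 stood at 18.8-fold in Treg and 30.8-fold in CD4. At chromosome 13, 23636289, Ets1 was 19.6-fold in Treg and 18.2-fold in CD4, and Elf1 41.6-fold in Treg and 44.4-fold in CD4. Of these 4 positions, the last had the higher Ets1 fold in Treg.

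The median Elf1 fold was higher at members than at joint positions near Foxp3 paired with them on Ets1 score. For the comparison, each joint position near Foxp3 was paired with a member whose CD4 Ets1 score lay within 0.1 on the log2 scale, which gave 729 pairs with a median score of 23.3 in both sets. The median CD4 Elf1 fold was 25.2 at members and 19.7 near Foxp3. The member had the higher value in 58.9% (55.2 to 62.5) of the pairs that differed, with a median log2 difference within pairs of 0.35. For Treg Elf1 the medians were 19.8 at members and 17.1 near Foxp3, and the member was higher in 54.8% (51.1 to 58.5). Both intervals lie above 50%, but they cover counting error only, over pairs of positions that are not replicates of a condition. Elf1 was used by the rule in both sets, so the comparison is a description. With lists ranked by fold in place of score the CD4 share was 55.1% (42.6 to 67.1), an interval that includes 50%. The distributions overlapped widely, as the boxes in the plot of fold by library show.

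For Ets1, the pairing held the CD4 score equal, so its CD4 fold in the pairs, with medians of 10.4 at members and 11.2 near Foxp3, is a description. Before pairing, the median CD4 Ets1 fold was 9.95 at members and 11.3 near Foxp3, and the median CD4 Ets1 score was 20.6 at members and 23.5 near Foxp3. In the pairs, the Treg Ets1 fold had a median of 6.56 at members and 6.88 near Foxp3, and the member was higher in 47.1% (43.4 to 50.9) of pairs. That interval includes 50%, which allows a small difference in either direction.

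**Figure D1:**
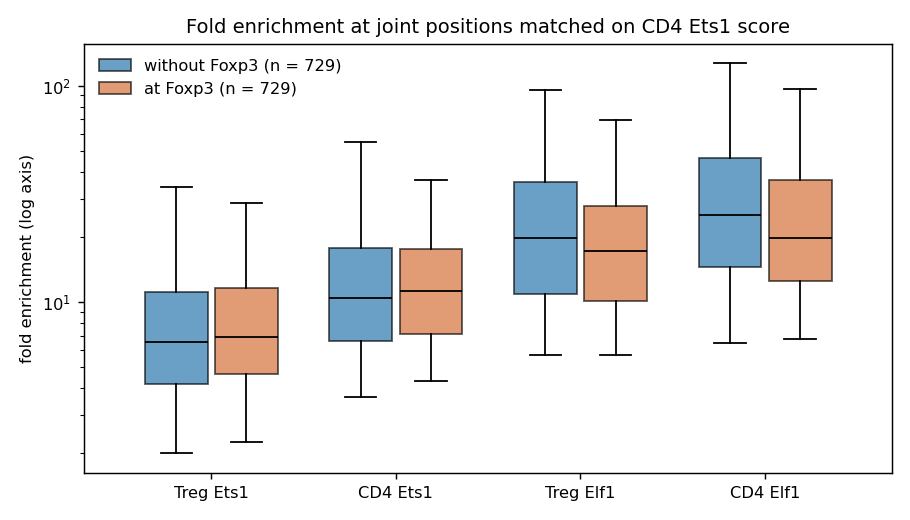
Fold enrichment on a log axis in the 4 Elf1 and Ets1 libraries at 729 members without Foxp3 (blue) and at the 729 joint positions near Foxp3 paired with them on CD4 Ets1 score (orange). Lines are medians, boxes span the quartiles and whiskers the 5th to 95th percentiles. The CD4 Elf1 median is 25.2 at members and 19.7 near Foxp3, while the Ets1 boxes nearly coincide.

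The share of joint positions without Foxp3 was higher in the top than in the bottom class of Elf1 score, and lower in the top than in the bottom class of Ets1 score. When the 1918 joint positions were cut into 10 equal classes by CD4 Elf1 score, 51.04% (43.7 to 58.3) of the lowest class lacked Foxp3, and 77.0% (70.3 to 82.7) of the highest. By Treg Elf1 score the share was 55.7% (48.4 to 62.9) in the lowest class and 73.3% (66.4 to 79.4) in the highest, with the classes between them at 52.6% to 65.1%. By CD4 Ets1 score the share was 64.1% (56.8 to 70.8) in the lowest class and 48.7% (41.4 to 56.0) in the highest. By Treg Ets1 score it was 65.6% (58.4 to 72.3) in the lowest and 51.8% (44.5 to 59.1) in the highest, with overlapping intervals. The rule used these scores to choose the joint positions, so the classes are a description. Classes by fold enrichment differed less. By CD4 Elf1 fold the share was 57.3% (49.97 to 64.4) in the lowest class and 68.1% (60.9 to 74.6) in the highest, and by CD4 Ets1 fold 68.2% (61.1 to 74.7) in the lowest and 55.5% (48.1 to 62.7) in the highest. By Treg Elf1 fold it was 60.4% (53.1 to 67.4) in the lowest and 66.0% (58.8 to 72.7) in the highest, and by Treg Ets1 fold 66.1% (59.0 to 72.8) in the lowest and 61.3% (54.0 to 68.2) in the highest. For all 4 libraries the intervals of the lowest and highest fold classes overlapped. The joint positions were also cut into 3 equal classes by each CD4 score. Of the 154 joint positions in the highest Elf1 class and the lowest Ets1 class, 123 (79.9%, 72.7 to 85.9) lacked Foxp3. Of the 179 in the lowest Elf1 class and the highest Ets1 class, 83 (46.4%, 38.9 to 54.0) did. By Treg scores the same combinations stood at 74.0% (67.5 to 79.7) and 50.7% (43.8 to 57.6).

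**Figure D2:**
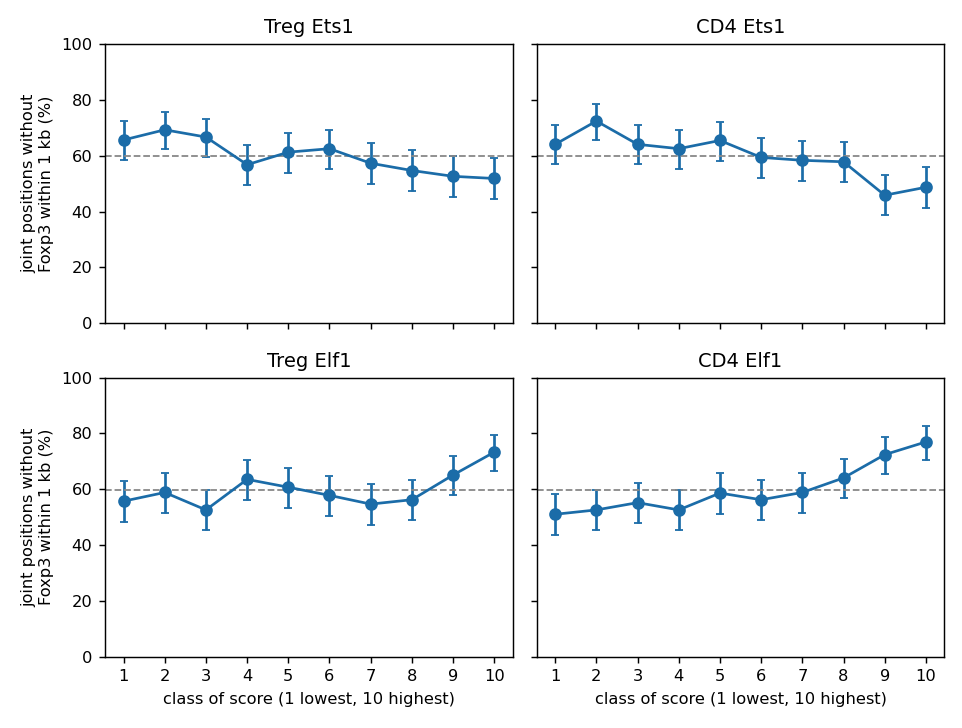
Share of joint positions without a Foxp3 midpoint within 1 kb, in percent, by 10 equal classes of the score in each library, with exact 95% intervals. The dashed line is the share over all 1918 joint positions, 59.9%. The share reaches 77.0% in the top class of CD4 Elf1 score and is 48.7% in the top class of CD4 Ets1 score.

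Ets1 and Elf1 were both less enriched in Treg than in CD4 at most members, by amounts close to those over all shared positions. For Ets1 the median log2 ratio of fold enrichment, Treg over CD4, was -0.59 (-0.66 to -0.54, order statistic interval; SD over members 0.96). The ratio was below 0 at 892 members (77.7%), against a background of 74.3% over the 4624 CD4 Ets1 positions that the Treg list shares. Ets1 was at least 2-fold lower in Treg at 354 members (30.8%; background 27.7%) and at least 2-fold higher at 46 (4.01%; background 4.63%). For Elf1 the median was -0.42 (-0.47 to -0.37; SD 0.74) and 850 members (74.0%; background 68.2%) were below 0. Elf1 was at least 2-fold lower at 198 members (17.2%; background 15.9%) and at least 2-fold higher at 42 (3.66%; background 4.52%). The medians over all shared positions were -0.50 for Ets1 and -0.32 for Elf1, so relative to them the members sat at -0.084 and -0.11. The scale between a Treg and a CD4 library depends on their depths and control, which are unknown, so the common shift and a difference between the cells cannot be told apart.

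Against the paired positions near Foxp3, the Ets1 ratio had the same median and the Elf1 ratio a lower one. The Ets1 median was -0.64 in both sets of 729 (-0.72 to -0.56 at members, -0.72 to -0.56 near Foxp3). The Elf1 median was -0.41 (-0.47 to -0.34) at members and -0.25 (-0.32 to -0.20) near Foxp3. The member had the lower Elf1 ratio in 53.6% of pairs, an interval of 49.9 to 57.3 that includes 50%. The interval lay above 50% with lists of 5000 (61.9%, 56.1 to 67.4), lists of 20000 (55.0%, 52.0 to 57.9) and the false discovery rate limit (52.9%, 50.5 to 55.3). It included 50% with lists ranked by fold (58.0%, 45.5 to 69.8), with pairs matched on CD4 Ets1 fold (53.4%, 49.7 to 57.1) and with 1 member per stretch of 1 kb (52.9%, 49.1 to 56.6). The Elf1 ratio is computed with the CD4 Elf1 fold, which was higher at members as described above. The part that this higher fold has in the ratio was not tested. Pairing on the mean log2 Elf1 fold in place of the Ets1 score gave 54.0% (50.3 to 57.7). Both factors were lower in Treg at 664 members (57.8%, 54.9 to 60.7; background 55.3% over all 1918 joint positions) and at 380 positions near Foxp3 (51.4%, 47.7 to 55.0).

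**Figure D3:**
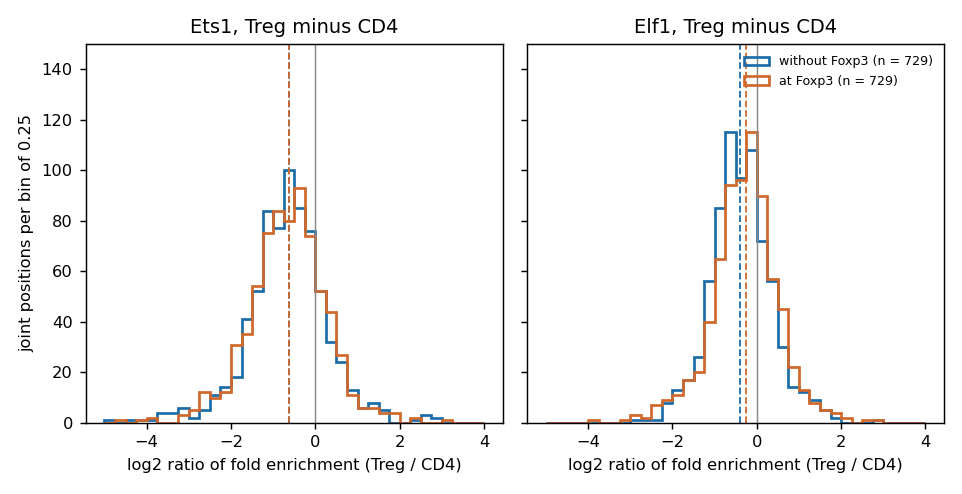
Number of joint positions per bin of 0.25 of the log2 ratio of fold enrichment, Treg over CD4, for Ets1 (left) and Elf1 (right), at 729 members without Foxp3 (blue) and the 729 paired positions near Foxp3 (orange). Dashed lines are medians, which coincide for Ets1 at -0.64 and lie at -0.41 and -0.25 for Elf1.

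The members named next had the most extreme ratios of fold between the cell types. Each ratio compares single libraries, and the lower bounds of the folds were much smaller than the folds. The Ets1 ratio was lowest at chromosome 4, 8462756, with 3.14-fold enrichment in Treg and 86.2-fold in CD4, a log2 ratio of -4.78. The lower bounds of these folds were 0.81 in Treg and 15.9 in CD4. Elf1 at that position was 203-fold in Treg and 343-fold in CD4. At chromosome 3, 89215779, Ets1 was 0.399-fold in Treg, below the control, and 7.69-fold in CD4. In the other direction, Ets1 was 57.9-fold in Treg and 5.19-fold in CD4 at chromosome 6, 49023828 (3.48), though the Treg score of 7.77 there ranked only 5172. Elf1 was highest in Treg relative to CD4 at chromosome 11, 68912234, with 208-fold in Treg and 28.8-fold in CD4 (2.85). It was lowest at chromosome 11, 93857071, with 3.58-fold in Treg and 64.6-fold in CD4 (-4.18). The lower bound of the CD4 fold there was 11.5, and the 4 positions spanned 186 bp. That position ranked 8627 by Treg Ets1 score and 8625 by Treg Elf1 score, near the end of both lists.

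The Elf1 libraries correlated more closely between the cell types than the Ets1 libraries. Across the 1148 members the log2 fold of Elf1 in Treg followed that in CD4 with a Pearson correlation of 0.82, and Ets1 did so with 0.65. Within a cell type, Elf1 and Ets1 correlated at 0.35 in Treg and 0.56 in CD4. Near Foxp3 the Elf1 value between cell types was 0.75 and the Ets1 value 0.63. These correlations describe positions that share libraries, local read depth and a common selection by score. The libraries differ in antibody and in weak positions, with 280 members under 4-fold in Treg Ets1 and 20 in Treg Elf1. Whether the factors themselves differ in this way was not tested.

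Elf1 positions of Treg and CD4 cells also lay closer together than Ets1 positions, with the same limit. Treg and CD4 Elf1 positions lay a median of 23 bp apart at members (21 to 24) and 28 bp near Foxp3 (25 to 31). They were within 50 bp at 80.7% (78.3 to 82.9) of members and at 71.8% (68.4 to 74.98) near Foxp3, and the pairs matched on score gave 80.8% and 72.0%. Treg and CD4 Ets1 positions lay 52 bp apart at members and 50 bp near Foxp3. Within a cell type, Elf1 and Ets1 positions were 72 bp (67 to 76) apart in Treg and 47 bp (43 to 50) in CD4 at members, and 64.5 bp (59 to 69) in Treg and 40 bp (35 to 46) in CD4 near Foxp3. Distances involving the CD4 Ets1 position were limited to 200 bp by the rule in both sets. All 4 positions spanned a median of 104 bp at members and 100.5 bp near Foxp3.

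Cbfb, the Runx partner, was found less often at members than at joint positions near Foxp3. In the list of the 10000 highest Treg Cbfb scores, a position lay within 200 bp of 61 members (5.31%, 4.09 to 6.77), against a background of 4.83% over all 10000 CD4 Ets1 positions. The share near Foxp3 was 98 of 740 (13.2%, 10.9 to 15.9). In the pairs matched on score, 31 members (4.25%, 2.91 to 5.98) and 95 positions near Foxp3 (13.0%, 10.7 to 15.7) had Cbfb, a difference, members minus near Foxp3, of -8.78 percentage points (Newcombe 95% interval -11.7 to -5.95). CD4 Ets1 positions that were not joint had Cbfb at 3.997% (3.58 to 4.45). With this list the share at members was close to the background, which includes the members, and the share near Foxp3 was higher. With longer Cbfb lists members stood above positions that were not joint. At a false discovery rate of at most 0.01 the shares were 16.5% (14.4 to 18.7) of members and 13.5% (12.8 to 14.3) of those not joint. With all deposited Cbfb positions they were 20.03% (17.8 to 22.5) and 16.5% (15.7 to 17.4).

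The difference was of similar size without the positions at which all 5 libraries coincided. Without the 8 members and the 1 position near Foxp3 at which all 5 libraries lay this close, 53 of 1140 members (4.65%, 3.50 to 6.04) had Cbfb, against 97 of 739 near Foxp3 (13.1%, 10.8 to 15.8). Pairing these anew gave a difference of -8.94 points (-11.8 to -6.16). In 2 small classes, the highest scores and the lowest folds, the share was higher at members, with overlapping intervals. Among the 20 highest CD4 Ets1 scores of each set, 12 members (60%, 36.1 to 80.9) and 6 positions near Foxp3 (30%, 11.9 to 54.3) had Cbfb, and of the next 30 in each set 1 member and 9 near Foxp3. Without the 20 highest scores of each set, the shares were 4.34% (3.23 to 5.70) of members and 12.8% (10.4 to 15.4) near Foxp3. By median fold over the 4 libraries, Cbfb was at 9 of the 29 members under 5-fold (31.0%, 15.3 to 50.8) and at 3 of 21 positions near Foxp3 (14.3%, 3.05 to 36.3). Without the positions at which all 5 libraries coincided these became 4 of 24 members (16.7%, 4.74 to 37.4) and 2 of 20 near Foxp3 (10%, 1.23 to 31.7). From 5-fold upward the share at members lay between 3.54% and 5.96%, and near Foxp3 between 11.1% and 14.3%. With all Cbfb positions at a false discovery rate of at most 0.01, the paired shares were 15.8% at members and 30.2% near Foxp3, a difference of -14.4 points (-18.6 to -10.1).

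**Figure D4:**
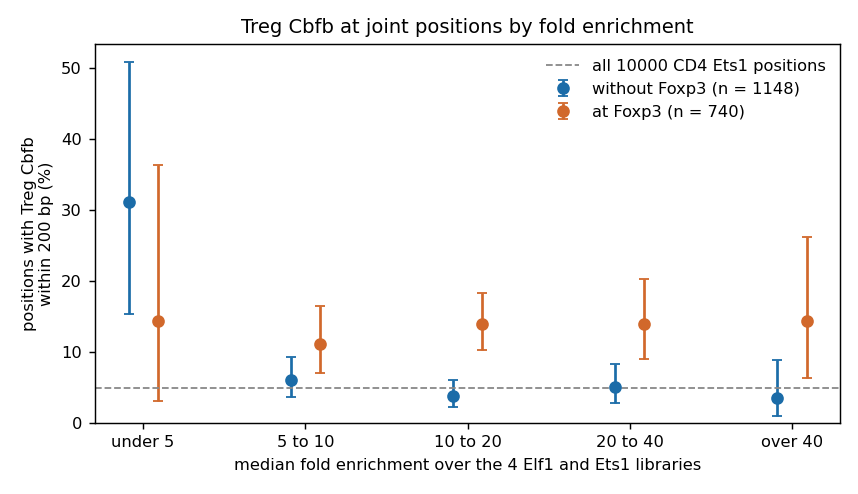
Share of joint positions with a Treg Cbfb position among its 10000 highest within 200 bp, in percent, by median fold enrichment over the 4 Elf1 and Ets1 libraries, at the 1148 members without Foxp3 (blue) and the 740 positions near Foxp3 (orange), with exact 95% intervals. The dashed line is the background of 4.83% over all 10000 CD4 Ets1 positions. Members lie near that line except under 5-fold, where 9 of 29 have Cbfb, against 3 of 21 near Foxp3.

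Members with Cbfb had similar Ets1 medians to the other members and lower Elf1 medians. The 61 members with Cbfb had a median Ets1 fold of 6.77 in Treg and 9.88 in CD4, against 6.72 in Treg and 9.95 in CD4 at the 1087 without it. Their median Elf1 fold was 12.2 in Treg and 16.0 in CD4, against 18.5 in Treg and 24.8 in CD4. Near Foxp3 the 98 joint positions with Cbfb had more Ets1, with medians of 9.99 in Treg and 14.1 in CD4, against 6.79 in Treg and 10.9 in CD4 at the 642 without. Elf1 medians were also lower with Cbfb there, at 16.6 in Treg and 18.3 in CD4, against 17.1 in Treg and 19.9 in CD4. Without the 8 members at which all 5 libraries coincided, the Elf1 medians of the members with Cbfb were 16.4 in Treg and 21.1 in CD4. The differences between these medians were not tested. The highest Cbfb scores at members were at chromosome 4, 70039223, chromosome 3, 5860704, and chromosome 13, 77578252. Cbfb lay on the CD4 Ets1 base at all 3, with 2.39-, 5.08- and 3.24-fold enrichment.

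Members had fewer Ets1 neighbours within 10 kb than joint positions near Foxp3. The rule set a Foxp3 distance over 1 kb, and distances beyond it are given as a description. The nearest Foxp3 midpoint was a median of 168624 bp away (quartiles 53089 and 489813), over the 1145 members on chromosomes that carry a peak. It lay within 10 kb at 83 members (7.25%, 5.81 to 8.91), against a background of 13.0% over all CD4 Ets1 positions beyond 1 kb. At the CD4 Ets1 positions beyond 1 kb that were not joint it was 914 of 6496 (14.1%, 13.2 to 14.9). That contrast depended on how the lists were made: the difference was -6.82 points here, 0.41 with all positions at a false discovery rate of at most 0.01, 3.36 with lists ranked by fold, and -1.55 with Treg Elf1 positions as the starting list. Another CD4 Ets1 position of the top 10000 lay within 10 kb of 434 members (37.8%, 35.0 to 40.7; background 48.5%) and of 380 positions near Foxp3 (51.4%, 47.7 to 55.0). In the pairs matched on score the shares were 38.4% and 51.3%, a difference of -12.9 points (-17.9 to -7.80). With lists ranked by fold, which left 170 members, it was -11.6 points with an interval of -27.2 to 4.89 that includes 0. Within 1 kb the paired shares were 20.03% and 19.6%, so the difference lay at a wider range. A Treg Cbfb position lay within 10 kb of 16.5% (13.8 to 19.4) of paired members and 28.4% (25.1 to 31.8) of positions near Foxp3 (background 20.2%). This count includes Cbfb within 200 bp, so it is not separate from the Cbfb difference given above. A Cbfb position on the CD4 Ets1 base itself was not counted.

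**Figure D5:**
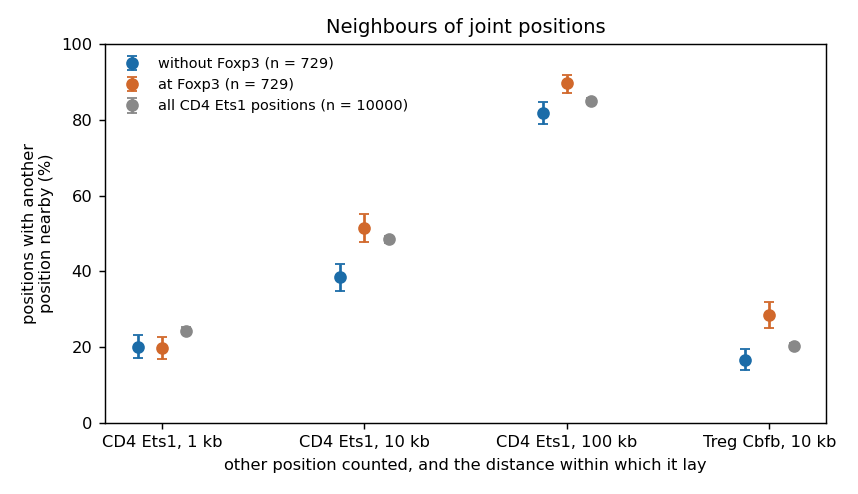
Share of positions with another CD4 Ets1 position within 1, 10 and 100 kb, and with a Treg Cbfb position within 10 kb, in percent with exact 95% intervals, at 729 members without Foxp3 (blue), the 729 paired positions near Foxp3 (orange) and all 10000 CD4 Ets1 positions (grey). For CD4 Ets1 at 10 kb the members are the lowest of the 3 sets, at 38.4%, while at 1 kb the paired sets stand at 20.03% and 19.6%. Cbfb within 200 bp is included, but not a position on the CD4 Ets1 base itself.

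Members nearest to Foxp3 peaks had no higher share with Cbfb than members farther away, within the precision of their number. Of the 83 members between 1 and 10 kb from a midpoint, 2 had a Cbfb position within 200 bp (2.41%, 0.293 to 8.43). The share was 4.83% (2.79 to 7.73) of the 331 members at 10 to 100 kb and 5.88% (4.29 to 7.84) of the 731 beyond, or 4.84% (3.39 to 6.67) of 723 without the 8 members at which all 5 libraries coincided. Another CD4 Ets1 position lay within 10 kb of 74 of the 83 (89.2%, 80.4 to 94.9), against 39.9% (34.6 to 45.4) and 31.1% (27.7 to 34.5) of the members farther away. The class was set by closeness to Foxp3 peaks, which can have CD4 Ets1 positions of their own. The share at other CD4 Ets1 positions at the same Foxp3 distance was not computed, so it is not shown to be particular to members. The median Ets1 ratio was -0.31 (-0.59 to -0.14) at the 83 members and -0.62 and -0.61 in the farther classes, with overlapping intervals. Members rarely lay next to one another: 90 of them (7.84%, 6.35 to 9.55) fell into 45 pairs with at most 10 kb between them, and none into a larger group. Near Foxp3, 92 joint positions (12.4%, 10.1 to 15.03) did so in 44 groups of at most 3.

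Members differed in density between chromosomes. The numbered chromosomes held 4.57 members per 10 Mb (exact Poisson interval 4.31 to 4.85), with 8.62 on chromosome 11 (7.05 to 10.4) and 7.24 on chromosome 17 (5.63 to 9.17). Chromosome X held 12 members, or 0.720 per 10 Mb (0.372 to 1.26). Members made up 10.9% (9.005 to 13.0) of the CD4 Ets1 positions on chromosome 11 and 8.45% (4.44 to 14.3) on X, against 11.5% (10.9 to 12.1) over the numbered chromosomes. On chromosome 4 the share was 14.7% (11.8 to 17.9), and it was 14.4% (11.4 to 17.8) on chromosome 17, where 71.1% of its 97 joint positions lacked Foxp3. On X, 12 of 13 joint positions lacked Foxp3, and 6 members lay on contigs without a place on a chromosome.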

How the data were processed

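Per the submitters' processing notes, reads were aligned with Bowtie 0.12.7 to build mm9. The authors deposited 1 list of binding positions, each a single base, for every Elf1, Ets1 and Cbfb library. Per the file headers, a position has a score, an E-value, an FDR (q-value) and a ratio of enrichment over control, called fold here, with its lower bound. The peak caller, control and read number are not given in the sources used here, so depth per library is unknown. For Foxp3 the authors deposited 2886 intervals of 200 bp from combined replicates, per the labels. The CD4 Cbfb and input libraries were not analysed here.

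Lists were cut at the 10000 highest scores, with ties in file order. For each pair, the nearest position within 200 bp was taken, and joint positions near Foxp3 were paired without reuse to the member nearest in CD4 Ets1 score, within 0.1 on the log2 scale. This left 11 positions near Foxp3 and 419 members unpaired. Shares have exact Clopper-Pearson 95% intervals, medians order statistic intervals, and differences of shares Newcombe intervals. The named positions were the 10 members with the best worst rank over the 4 libraries, the 3 highest Cbfb scores, the 3 highest and 3 lowest Treg over CD4 ratios of each factor and the 3 positions on each side of the 1 kb limit. Not all of them are printed. The stretch with the most members could not be singled out, since many held 2. Members, lists and rule were chosen with earlier results of these data known. The limits of 4- and 5-fold, the 20 bp limit, the neighbour distance of 10 kb and the classes of members were set after seeing the data. The planned look at gene annotation and sequence was not run without an mm9 genome. Functions were tested on simulated data. Calculations used Python 3.11.15, numpy 2.4.6, pandas 2.3.3, scipy 1.17.1 and matplotlib 3.10.9. Alternatives are given in the closing section.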

Additional observations from a re-analysis of the deposited data

How the results depend on the processing

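Each choice was changed alone. Of 129 values so obtained, 91 stayed within their interval or within 1.5 times the count, 36 moved beyond it and 2 changed sign. Keeping tied positions changed none of its values, and these are counted among the 91. Alternatives that kept tied positions, left out positions under 4-fold, paired on fold, or were applied to the pairs and neighbourhoods were chosen after seeing the data.

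The number of members was 447 with lists of 5000, 2194 with 20000, 4311 with an FDR of at most 0.01, 170 with lists ranked by fold and 666 with a joint distance of 100 bp. The share of joint positions without Foxp3 was 64.4% with 20000 positions, 70.3% with the FDR limit, 67.7% with the fold ranking and 62.2% with a joint distance of 500 bp. The Ets1 median log2 ratio was -0.66 with lists of 5000, -0.19 with the fold ranking, -0.82 with the lower bound of the fold, -0.084 centred on all common positions and -0.45 without positions under 4-fold. The Elf1 median was -0.36 with 20000 positions, -0.35 with the FDR limit, -0.36 with the fold ranking, -0.50 with the lower bound and -0.11 centred.

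The share of members with Cbfb was 2.35% with the fold ranking, 6.97% with Cbfb within 500 bp, 16.5% with Cbfb at the FDR limit and 20.03% with all deposited Cbfb positions. Of the CD4 Ets1 positions that were not joint, 13.5% had Cbfb at the FDR limit and 16.5% with all deposited Cbfb positions. The paired difference was -14.5 points with the fold ranking, -14.4 with Cbfb at the FDR limit and -16.0 with all Cbfb positions, and it was negative under every alternative tried. The share of pairs with the higher CD4 Elf1 fold at the member was 54.8% with the FDR limit and 55.1% with the fold ranking, whose interval of 42.6 to 67.1 includes 50%. The share with the lower Elf1 ratio at the member was 61.9% with lists of 5000 and 58.0% with the fold ranking. The difference in shares within 10 kb of a Foxp3 midpoint was 0.41 points with the FDR limit, 3.36 with the fold ranking and -1.55 with Treg Elf1 as the starting list. Chromosome 11 held 3.20 members per 10 Mb with lists of 5000, 15.7 with 20000 and 5.91 without positions under 4-fold. Chromosome X held 0.12 with lists of 5000 and 1.92 with 20000. The causes of these changes were not tested, beyond list lengths that set the counts.

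No paired analysis was possible because each compared group had 1 library, and the replicate numbers in the labels belong to Foxp3 and input samples whose peaks were deposited as 1 combined list. The lists do not state depth, so positions outside a list are below its score limit, not unbound.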
